A study of Homo sapiens with 8 samples.

Results

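Genes of the lysosome and of autophagy were examined in HuCCT1, an established human cholangiocarcinoma (bile duct cancer) cell line, after knockdown of YAP1. The list names 34 genes. It comprises 19 lysosomal genes, 12 genes of the autophagy machinery and the 3 transcription factor genes TFEB, TFE3 and MITF. Each gene was read from 1 probe set, the brightest of those that carry a single gene symbol, and 33 of the 34 had one, out of 19775 genes measured. GLB1, the lysosomal beta-galactosidase gene, had none and is not analysed here. The samples were 4 arrays of cells with YAP shRNA 1, an shRNA against YAP1, and 4 arrays of cells with a scrambled control shRNA. Both groups received doxycycline at 100 ng/ml, begun 3 days ahead of seeding, to switch on the shRNA. All samples with lower YAP1 carried the same single shRNA, so effects of its sequence and of the lower YAP1 cannot be told apart. Nothing in the labels states that the 4 replicates of a group came from different cultures. The p-values therefore reflect only how these arrays vary, which may be technical.

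Lysosomes are acidic organelles in which proteases, glycosidases and lipid-cleaving enzymes break down material delivered by endocytosis and autophagy. In autophagy, a double membrane closes around cytoplasmic cargo. A lipid kinase complex starts the membrane, 2 ubiquitin-like conjugation reactions attach proteins of the ATG8 family to it, and the finished vesicle fuses with lysosomes. The MiT/TFE factors TFEB, TFE3 and MITF bind E-box elements in many lysosomal and autophagy promoters and raise their transcription together. YAP1 encodes the transcriptional coactivator that the Hippo pathway restrains.

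Values are the deposited log2 expression values, so a difference of 1 is a doubling, and levels of different probe sets cannot be compared as amounts of RNA. On bulk arrays, fewer cells with a transcript and less RNA per cell cannot be told apart. YAP1 stood at 10.40, 10.55, 10.51 and 10.54 on the YAP shRNA arrays and at 12.59, 12.61, 12.77 and 12.60 on the control arrays. The targeted gene was thus lower on all YAP shRNA arrays (log2 fold change -2.14, limma adjusted p = 6.15e-07; two-sided exact permutation p = 0.0286, the smallest possible with 4 arrays a group). Control shRNA replicate 4 stood apart from the other arrays. Across genes it correlated with the other arrays of its group at 0.9967 on average, while the remaining 7 arrays had 0.9978 to 0.9988. Among the 33 listed genes it was the control array farthest from the other 3 for 21, and the highest control array for 21. Results are therefore given with and without it where that matters.

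Of the 18 measured lysosomal genes, 5 rose and 2 fell with the YAP shRNA, and of the 12 autophagy genes 1 rose and 1 fell. Called genes have a limma adjusted p below 0.05 over all 19775 genes, of which 16.7% were called, 9.49% as risen and 7.17% as fallen. Among genes at or above the median level, where 31 of the 33 listed genes lie, 26.6% were called. Against that share, 38.9% of the lysosomal genes and 16.7% of the autophagy genes were called. The 11 lysosomal enzyme genes, counted with the saposin precursor gene PSAP, had 5 rises and 1 fall, with a median log2 fold change of 0.18. The 7 genes of the lysosomal membrane and of cholesterol export had 0 rises and 1 fall, with a median of -0.03. The autophagy genes had a median of 0.07, and the median over all genes was 0.01. The changes were small, from -0.30 for NPC1 to 0.42 for CTSB. The arrays of the groups did not overlap for 15 of the 33 listed genes, 8 higher and 7 lower, where 24.3% of all genes and 40.2% of those at or above the median level did not overlap. Without control shRNA replicate 4, the lysosomal genes had 6 rises and 2 falls, the added rise being GAA, and the autophagy genes 3 rises and 1 fall. Leaving out any 1 of the 4 YAP shRNA arrays or control shRNA replicate 3 left 3 or 4 lysosomal calls, and leaving out YAP shRNA replicate 2, 3 or 4 or control shRNA replicate 2 left 1 autophagy call, that of WIPI2.

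**Figure D1:**
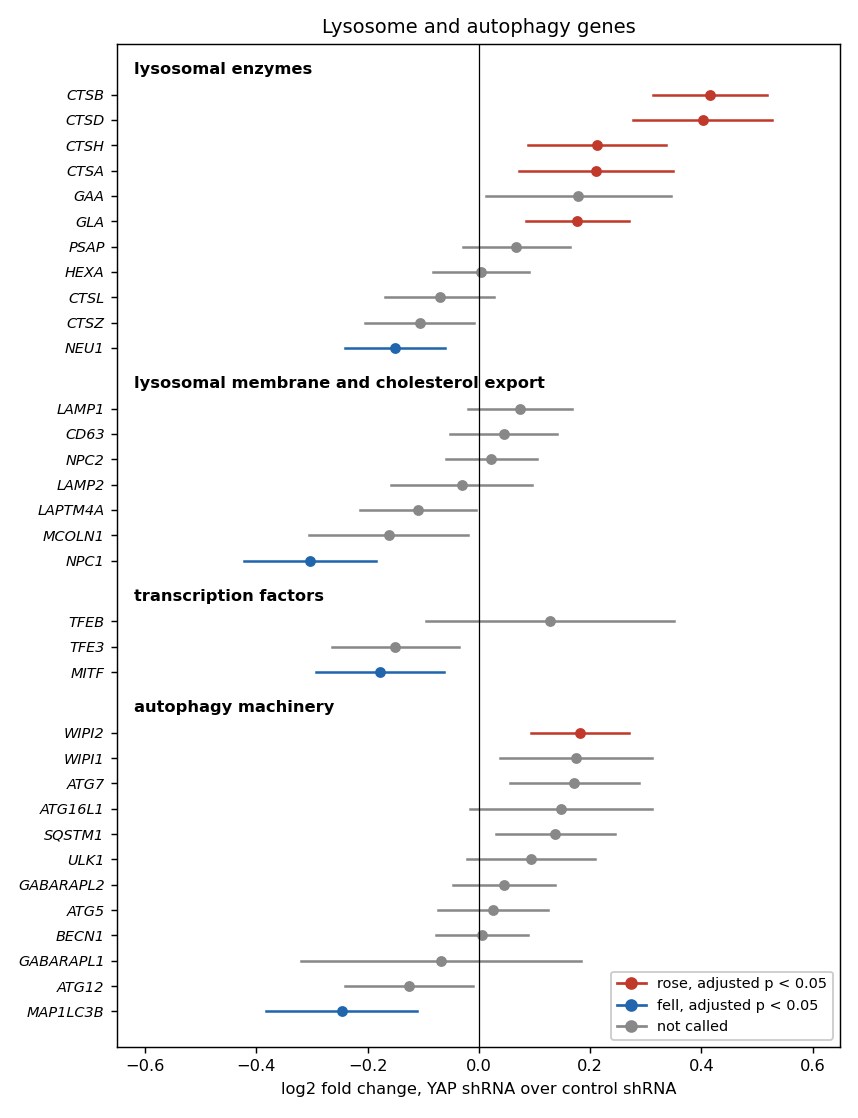
Log2 fold change (YAP shRNA over control shRNA, horizontal axis) of the 33 measured lysosome and autophagy genes, by role, with 95% confidence intervals from the fit (lines). Red genes rose, blue genes fell and grey genes were not called; the 2 largest rises are those of CTSB and CTSD, at 0.42 and 0.40, and NPC1 is lowest at -0.30.

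Of the 6 listed cathepsin genes, which encode lysosomal proteases, 4 rose and 0 fell, with a median log2 fold change of 0.21. That is 66.7% called, where 26.6% of all genes at or above the median level were called. Cathepsin genes outside the list, given below, moved in both directions: CTSS and CTSO rose, and CTSV and CTSC fell. CTSB, a cysteine protease that trims peptides and cuts within them, read 12.80, 12.80, 12.81 and 12.82 on the YAP shRNA arrays and 12.36, 12.37, 12.33 and 12.50 on the control arrays. Every YAP shRNA array lay above every control array, and the YAP shRNA arrays lay close together (means of 12.81 ± 0.00889 and 12.39 ± 0.0746, SD, n = 4 and 4). CTSB rose 1.33-fold (log2 fold change 0.42, standard error 0.0446, limma adjusted p = 0.000442). CTSB lies on chromosome 8, whose 368 genes at or above the median level had a median log2 fold change of 0.11. CTSD, the main lysosomal aspartic protease, read 9.23, 9.10, 9.16 and 9.24 with the YAP shRNA and 8.79, 8.73, 8.70 and 8.90 with the control shRNA. Its groups were also apart, and it rose 1.32-fold (0.40, standard error 0.0547, limma adjusted p = 0.00153). CTSD lies on chromosome 11, where the corresponding median was 0.03. Both calls held under all 20 alternatives tried, including each array left out in turn.

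CTSH and CTSA rose less and with less certainty. CTSH, a cysteine protease that acts as an aminopeptidase, read 10.94, 10.87, 10.89 and 10.97 with the YAP shRNA and 10.81, 10.60, 10.65 and 10.75 with the control shRNA. It rose 1.16-fold, with groups that did not overlap (0.21, limma adjusted p = 0.0291). CTSA, a serine carboxypeptidase that also stabilises NEU1 and beta-galactosidase in a complex, read 11.77, 11.78, 11.81 and 11.87 against 11.70, 11.58, 11.67 and 11.44 on the control arrays. Its control arrays were spread more widely than its YAP shRNA arrays, and it rose 1.16-fold (0.21, limma adjusted p = 0.0475). Both calls were lost when any of the 4 YAP shRNA arrays or control shRNA replicate 2 or 3 was left out. The limma adjusted p then lay between 0.0520 and 0.0830 for CTSH and between 0.0594 and 0.124 for CTSA. Over all alternatives it ranged from 0.00544 to 0.0830 for CTSH and from 0.00681 to 0.140 for CTSA.

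The other 2 listed cathepsins did not rise. CTSZ, a carboxypeptidase, read 10.38, 10.32, 10.34 and 10.33 with the YAP shRNA and 10.41, 10.49, 10.52 and 10.38 with the control shRNA. All its YAP shRNA arrays lay below its control arrays, the nearest by less than 0.01, and it was not called (-0.11, limma adjusted p = 0.136). CTSL, an endopeptidase, stood at -0.07 on the log2 scale, and its groups overlapped (95% interval -0.17 to 0.03, limma adjusted p = 0.329). The intervals of both lie below those of CTSB and CTSD, which begin at 0.31 and 0.28.

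Glycosidase genes moved in both directions. GLA, the alpha-galactosidase that is deficient in Fabry disease, read 12.06, 11.99, 12.02 and 12.08 with the YAP shRNA and 11.92, 11.81, 11.84 and 11.87 with the control shRNA. It rose 1.13-fold without overlap of the groups (0.18, standard error 0.0407, limma adjusted p = 0.0186). NEU1, the lysosomal sialidase, read 10.15, 10.07, 10.08 and 10.10 with the YAP shRNA and 10.30, 10.20, 10.23 and 10.26 with the control shRNA. All YAP shRNA arrays lay below the control arrays, and NEU1 fell 1.11-fold (-0.15, standard error 0.0391, limma adjusted p = 0.0316). NEU1 and CTSA, whose products form a complex, were thus called in opposite directions, although both calls were lost when certain single arrays were left out. The GLA call was lost without YAP shRNA replicate 1 or 4 or control shRNA replicate 2 or 3 (limma adjusted p of 0.0536 to 0.0580; 0.00122 to 0.0634 over all alternatives). The NEU1 call was lost without YAP shRNA replicate 2, 3 or 4 or control shRNA replicate 1 or 3 (limma adjusted p of 0.0627 to 0.0960; 0.00646 to 0.0960 over all alternatives).

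GAA, the acid alpha-glucosidase that is deficient in Pompe disease, depended on a single array. It read 7.052, 7.002, 6.925 and 6.911 with the YAP shRNA and 6.704, 6.751, 6.717 and 7.001 with the control shRNA. The high control value was that of replicate 4, and the other control arrays lay below all YAP shRNA arrays. GAA was not called with all arrays (0.18, limma adjusted p = 0.140) and was called without control shRNA replicate 4 (0.25, limma adjusted p = 0.00800; 0.00800 to 0.279 over all alternatives). HEXA, the alpha subunit of beta-hexosaminidase, stood at 0.00 with an interval of -0.08 to 0.09. PSAP, which encodes the precursor of the saposins that present lipids to these enzymes, stood at 0.07 (interval -0.03 to 0.16). For these 2 genes the intervals leave out a rise as large as those of CTSB and CTSD.

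**Figure D2:**
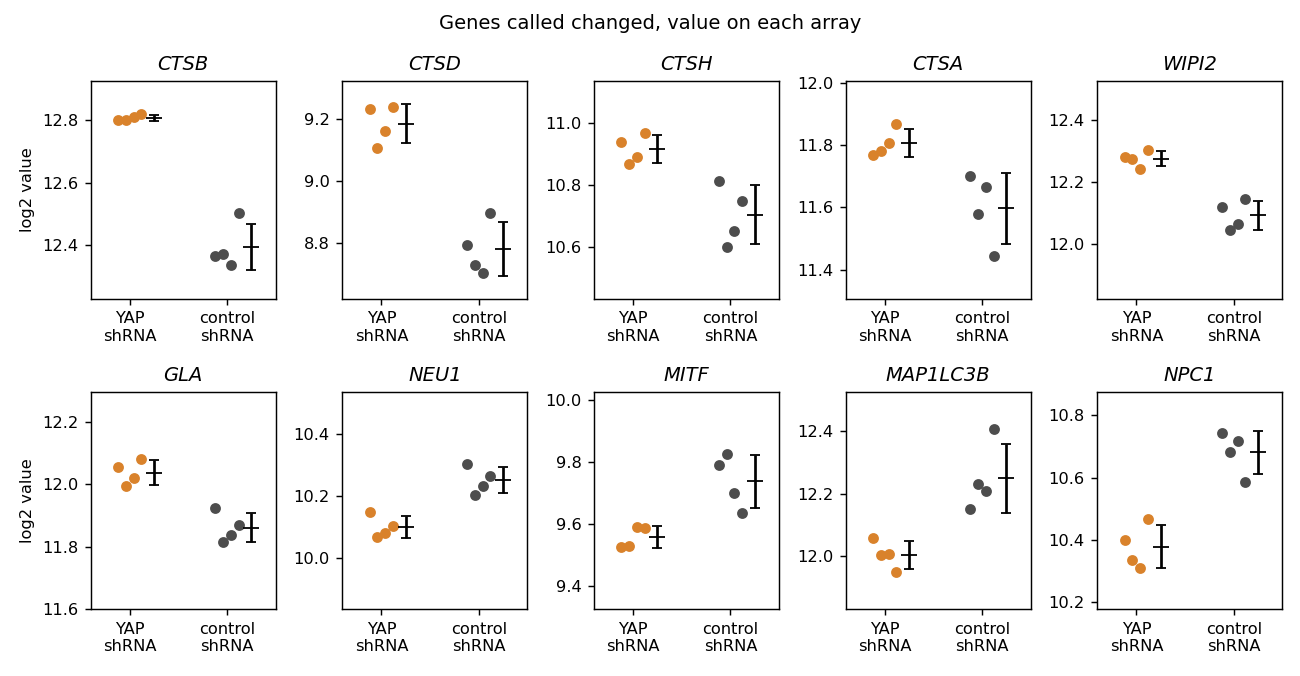
Log2 value on each array (points) for the 10 listed genes called changed, with YAP shRNA arrays in orange on the left and control shRNA arrays in grey on the right. The horizontal tick and whiskers give the mean and SD of 4 arrays, and all panels span 0.7 log2; no group overlaps the other in any panel, and CTSB and NPC1 have the largest differences upward and downward.

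Genes of the lysosomal membrane changed little, apart from NPC1. NPC1, the membrane protein that exports cholesterol from lysosomes, read 10.40, 10.34, 10.31 and 10.47 with the YAP shRNA and 10.74, 10.68, 10.72 and 10.59 with the control shRNA. The groups did not overlap, and the nearest control array was replicate 4. NPC1 fell 1.23-fold (-0.30, standard error 0.0520, limma adjusted p = 0.00471), and the call held under all 20 alternatives. NPC1 lies on chromosome 18, whose 151 genes at or above the median level had a median of -0.10. NPC2, the soluble protein that hands cholesterol to NPC1, stood at 0.02 (interval -0.06 to 0.10) with overlapping groups. The interval of NPC2 lies above that of NPC1, which runs from -0.42 to -0.18.

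Read from their brightest probe sets, the structural membrane proteins of the lysosome had intervals close to 0. LAMP1 and LAMP2, the most abundant glycoproteins of the lysosomal membrane, had log2 fold changes of 0.07 (interval -0.02 to 0.17) and -0.03 (interval -0.16 to 0.10). All 4 probe sets of LAMP2 were negative, from -0.03 to -0.26. In the probe set at -0.26, every YAP shRNA array lay below every control array. That probe set was not called (limma adjusted p = 0.0628 over all probe sets). CD63, a tetraspanin of late endosomes and lysosomes, stood at 0.04 (interval -0.05 to 0.14). LAPTM4A, a small membrane protein of late endosomes and lysosomes, read 13.16, 13.13, 13.13 and 13.11 with the YAP shRNA and 13.17, 13.25, 13.20 and 13.34 with the control shRNA. The groups did not overlap, although the difference of -0.11 was not called (limma adjusted p = 0.153). MCOLN1, the lysosomal calcium channel TRPML1, read 7.92, 7.88, 7.78 and 7.83 with the YAP shRNA and 8.12, 7.86, 8.02 and 8.05 with the control shRNA. Only control shRNA replicate 2 fell within the YAP shRNA range, so leaving it out must widen the difference, and a call gained so adds no support. The difference of -0.16 was not called (limma adjusted p = 0.123), and was called without that array (-0.21, limma adjusted p = 0.0324; 0.0324 to 0.265 over all alternatives).

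None of the 3 MiT/TFE transcription factor genes rose. MITF read 9.53, 9.53, 9.59 and 9.59 with the YAP shRNA and 9.79, 9.83, 9.70 and 9.64 with the control shRNA. The groups did not overlap, and MITF fell 1.13-fold (-0.18, standard error 0.0503, limma adjusted p = 0.0436). That call was lost when any array except control shRNA replicate 4 was left out (limma adjusted p of 0.0696 to 0.114; 0.0128 to 0.144 over all alternatives). TFE3 read 11.54, 11.51, 11.47 and 11.50 with the YAP shRNA and 11.53, 11.69, 11.67 and 11.73 with the control shRNA. Its replicate 1 among the controls lay inside the YAP shRNA range, so leaving it out must widen the difference, and a call gained so adds no support. The difference of -0.15 was not called (limma adjusted p = 0.0776), and was called without that array (-0.19, limma adjusted p = 0.0164; 0.0164 to 0.651 over all alternatives). TFEB was dim, at 5.474, 5.509, 5.360 and 5.417 with the YAP shRNA and 5.417, 5.417, 4.999 and 5.417 with the control shRNA. The median gene level was 7.44, the values carry no detection call, and the difference of 0.13 had an interval of -0.10 to 0.35. These are transcript levels, and the activity of the factors, which is known to be set largely by their phosphorylation and movement into the nucleus, was not measured.

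The E-box core CACGTG, which lies at the centre of the element that MiT/TFE factors bind, was looked up in RefSeq promoters (GRCh38.p14, 250 bases before to 50 after each start). The core reads the same on both strands. Of the 33 measured genes, 29 had a promoter sequence, and 7 of the 29 held the core, as did 7.26% of all 35116 promoters and 10.9% of 15384 array genes with one. The promoter set held no sequence for CTSB, HEXA, PSAP and LAMP2, so these genes were not searched. The 3 promoters below are shown because their genes differ in direction: CTSD rose, NEU1 fell and LAMP1 was not called. Each line gives the 250 bases before the start, 5′ to 3′ on the gene's strand, with the core in capitals. They are chr11:1763928-1764177 (minus strand) for CTSD, chr6:31862822-31863071 (minus strand) for NEU1 and chr13:113296989-113297238 (plus strand) for LAMP1.
CTSD: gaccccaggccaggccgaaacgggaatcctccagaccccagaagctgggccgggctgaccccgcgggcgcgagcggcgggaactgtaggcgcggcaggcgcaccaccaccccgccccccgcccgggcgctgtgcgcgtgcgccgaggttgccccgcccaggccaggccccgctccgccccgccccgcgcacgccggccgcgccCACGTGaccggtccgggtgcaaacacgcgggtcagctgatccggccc
NEU1: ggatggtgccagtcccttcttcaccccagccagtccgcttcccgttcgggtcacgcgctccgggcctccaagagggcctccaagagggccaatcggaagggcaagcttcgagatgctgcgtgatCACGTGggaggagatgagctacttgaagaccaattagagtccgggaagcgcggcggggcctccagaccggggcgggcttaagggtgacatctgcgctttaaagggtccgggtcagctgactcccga
LAMP1: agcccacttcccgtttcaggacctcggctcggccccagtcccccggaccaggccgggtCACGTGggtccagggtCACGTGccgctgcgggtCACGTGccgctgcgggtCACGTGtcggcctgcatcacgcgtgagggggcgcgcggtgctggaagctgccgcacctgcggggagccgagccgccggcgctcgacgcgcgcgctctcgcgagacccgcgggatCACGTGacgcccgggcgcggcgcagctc
CTSD had 1 core, 47 bases before its start, and NEU1 had 1, 126 bases before. LAMP1 had 6, the last of which begins 1 base before the start and so runs past the printed stretch. The other 4 genes with a core are shown as 30 bases around the match nearest the start. They are chr20:45891298-45891327 (plus strand) for CTSA, chr17:80101538-80101567 (plus strand) for GAA, chr19:7522598-7522627 (plus strand) for MCOLN1 and chr12:55729172-55729201 (minus strand) for CD63.
CTSA: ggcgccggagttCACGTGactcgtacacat
GAA: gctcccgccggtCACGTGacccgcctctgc
MCOLN1: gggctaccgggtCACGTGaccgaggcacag
CD63: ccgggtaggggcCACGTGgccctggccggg
These cores begin 25, 31, 14 and 180 bases before the starts of CTSA, GAA, MCOLN1 and CD63. The 7 genes with a core had log2 fold changes from -0.16 for MCOLN1 to 0.40 for CTSD, with a median of 0.07. Of these 7, CTSD and CTSA rose and NEU1 fell. Among all genes at or above the median level, 1087 had a promoter with the core, of which 133 rose and 120 fell, or 23.3% called. The longer palindrome with GT before the core and AC after it was found in 0.353% of promoters and for 0.65% of array genes. Among all genes at or above the median level, 78 had a promoter with it, of which 6 rose and 4 fell, or 12.8% called. Among the listed genes it was in GAA, with 2 matches, and MCOLN1, with 1, and neither gene was called. GGAATG, the core bound by the TEAD partners of YAP, searched on both strands, was found in 14.0% of promoters, for 15.7% of array genes and for 7 of the 29 listed genes. Those were ATG7, BECN1, CD63, GABARAPL2, MITF, NPC2 and ULK1, of which MITF fell and the other 6 were not called. Among all genes at or above the median level, 1195 had a promoter with GGAATG, of which 166 rose and 168 fell, or 27.9% called.

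In the autophagy machinery, MAP1LC3B fell. MAP1LC3B encodes LC3B, the ATG8 family protein that is conjugated to autophagosome membranes and is the usual marker of them. It read 12.058, 12.003, 12.005 and 11.948 with the YAP shRNA and 12.151, 12.230, 12.210 and 12.408 with the control shRNA. All YAP shRNA arrays lay below the control arrays, of which replicate 4 was highest. MAP1LC3B fell 1.19-fold (-0.25, standard error 0.0594, limma adjusted p = 0.0229). The gene lies on chromosome 16, where genes at or above the median level had a median of 0.07. The call was lost without YAP shRNA replicate 2, 3 or 4 or control shRNA replicate 2 (limma adjusted p of 0.0503 to 0.0680; 0.00182 to 0.0963 over all alternatives). Its relatives GABARAPL1 and GABARAPL2, also ATG8 family proteins, stood at -0.07 (interval -0.32 to 0.18) and 0.04 (interval -0.05 to 0.14). The wide interval of GABARAPL1 goes with a value of 10.03 on control shRNA replicate 4, where the other control arrays read 9.70, 9.60 and 9.49. Without that array its log2 fold change was 0.04 (limma adjusted p = 0.751; 0.323 to 0.986 over all alternatives). A dimmer GABARAPL1 probe set stood at -0.22, with all YAP shRNA arrays below the control arrays. It was not called (limma adjusted p = 0.0808 over all probe sets). SQSTM1, the cargo receptor p62 that links ubiquitinated material to LC3, read 11.66, 11.64, 11.71 and 11.70 with the YAP shRNA and 11.48, 11.52, 11.51 and 11.65 with the control shRNA. Control shRNA replicate 4 lay among the YAP shRNA arrays. SQSTM1 was not called (0.14, limma adjusted p = 0.0829), and was called without that array (0.17, limma adjusted p = 0.0130; 0.0130 to 0.577 over all alternatives).

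The WIPI genes, whose products read the lipid phosphatidylinositol 3-phosphate on the forming membrane, had positive log2 fold changes. WIPI2, which recruits ATG16L1 to that membrane, read 12.28, 12.27, 12.24 and 12.30 with the YAP shRNA and 12.12, 12.05, 12.06 and 12.14 with the control shRNA. The groups did not overlap, and WIPI2 rose 1.13-fold (0.18, standard error 0.0383, limma adjusted p = 0.0126). The WIPI2 call held with each array left out in turn. Without probe sets ending in _x_at or _s_at, WIPI2 was read from a dimmer probe set, with a larger difference that was not called (0.32, limma adjusted p = 0.109; 0.00046 to 0.109 over all alternatives). WIPI1 read 8.62, 8.76, 8.85 and 8.81 with the YAP shRNA and 8.63, 8.55, 8.52 and 8.66 with the control shRNA. Only YAP shRNA replicate 1 overlapped the control arrays, so leaving it out must widen the difference, and a call gained so adds no support. The difference of 0.17 was not called (limma adjusted p = 0.0847), and was called without that array (0.22, limma adjusted p = 0.0301; 0.0301 to 0.233 over all alternatives).

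The 4 genes of the conjugation reactions were not called by limma, although 2 had an unadjusted p below 0.05. ATG7, the activating enzyme of both reactions, read 9.66, 9.73, 9.74 and 9.78 with the YAP shRNA and 9.45, 9.53, 9.59 and 9.64 with the control shRNA. Its groups did not overlap, with a difference of 0.17 (limma adjusted p = 0.0513), and it was called without control shRNA replicate 4 (0.20, limma adjusted p = 0.0238; 0.0157 to 0.148 over all alternatives). ATG12, the ubiquitin-like protein joined to ATG5, stood at -0.13 (limma adjusted p = 0.136), with its YAP shRNA arrays all below its control arrays. ATG5 stood at 0.02 (interval -0.07 to 0.12). ATG16L1, which completes the complex with ATG12 and ATG5, stood at 0.15 with overlapping groups (interval -0.02 to 0.31). Among the genes that start autophagy, ULK1, the initiating kinase, stood at 0.09 (interval -0.02 to 0.21), and BECN1, the scaffold of the lipid kinase complex, at 0.01 (interval -0.08 to 0.09). A dimmer BECN1 probe set stood at 0.19 without overlap of the groups, and was not called (limma adjusted p = 0.0607 over all probe sets).

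Of the 33 listed genes, 20 had more than 1 probe set, and all 78 probe sets were compared in a fit of every probe set with a single symbol, in which 13.6% of 41097 were called. All 5 probe sets of CTSB rose, by 0.38 to 0.72 on the log2 scale. Both probe sets of MAP1LC3B fell, with log2 fold changes of -0.25 and -0.35. All 4 probe sets of NPC1 were negative, from -0.18 to -0.31, and 1 was called. All 3 of MITF were negative, from -0.13 to -0.25, and 1 was called, though not the brightest. All 5 of WIPI2 were positive, from 0.10 to 0.37, and 2 were called. For 15 of the 20 genes every probe set had the same sign, and for SQSTM1, TFE3, TFEB, ATG5 and ATG7 the signs differed. For SQSTM1, the 2 brightest probe sets stood at 0.14 and 0.06, neither called, while a dimmer one fell (-0.29, limma adjusted p = 0.0183). TFE3 had a probe set that fell (-0.27, limma adjusted p = 0.0345) and 2 dim ones with log2 fold changes of 0.19 and 0.08, neither called. For ATG7, a dimmer probe set rose (0.18, limma adjusted p = 0.0195) and another stood at 0.14, both without overlap of the groups, while the remaining one stood at -0.11; only the first of these was called. CTSA, CTSD, CTSH, GLA and NEU1 rest on 1 probe set each. In this fit CTSA and NEU1 were not called (limma adjusted p of 0.0610 and 0.0528).

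**Figure D3:**
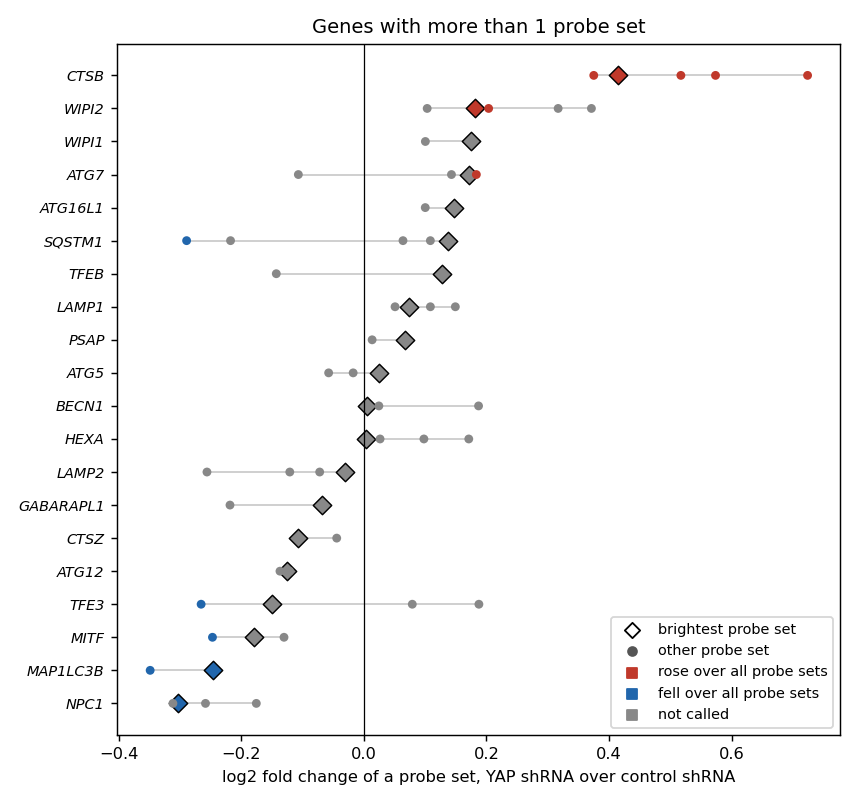
Log2 fold change (horizontal axis) of every single-symbol probe set of the 20 listed genes that have more than 1; diamonds mark the brightest probe set and circles the others, coloured by their call over all 41097 probe sets. The 5 probe sets of CTSB lie between 0.38 and 0.72, and those of SQSTM1 spread from -0.29 to 0.14.

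Other genes of the same pathways were read from 6 lists that hold none of the genes above. Of their 131 measured genes, 22 rose and 10 fell, or 24.4%, with a median log2 fold change of 0.03. That is near the 26.6% called among all genes at or above the median level, where 108 of the 131 lie. Over all genes 16.7% were called. The counts of the single lists below are to be set beside the same shares. Other lysosomal hydrolases gave 8 rises and 5 falls among 26 genes, or 50%. CTSS, a cysteine cathepsin of antigen-presenting cells, read 10.16, 10.28, 10.27 and 10.33 with the YAP shRNA and 9.30, 9.43, 9.40 and 9.55 with the control shRNA. CTSS had a larger difference than any listed gene, at 0.84 (1.79-fold, limma adjusted p = 8.59e-05). MANBA, the lysosomal beta-mannosidase, and CTSO, another cysteine cathepsin, rose by 0.64 and 0.50. CTSV, a close relative of CTSL, fell by 0.64, CTSC, the dipeptidyl peptidase that activates serine proteases, fell by 0.49, and ARSB, an arylsulfatase, fell by 0.46.

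The proton pump that acidifies lysosomes had 3 rises and 0 falls among 17 genes, or 17.6%. They were ATP6V0D1, ATP6V1B2 and ATP6V1H, by 0.27, 0.20 and 0.20, of which ATP6V1B2 and ATP6V1H lie on chromosome 8 like CTSB. ATP6V1C1 of the same list, also on chromosome 8, stood at 0.02 and was not called. Other genes of the lysosomal membrane had 2 rises and 1 fall among 17. SLC17A5, the exporter of sialic acid, rose by 0.43 and CLN3 by 0.24, and CTNS, the cystine exporter, fell by 0.19. Sorting by mannose 6-phosphate, which sends new hydrolases to lysosomes, had 2 rises and 1 fall among 8 genes. GNPTG, a subunit of the enzyme that makes the tag, rose by 0.49 and GGA3, a sorting adaptor, by 0.21. M6PR, a receptor of the tag, fell by 0.34.

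Further autophagy genes had 5 rises and 1 fall among 41, or 14.6%. ATG16L2, a relative of ATG16L1, rose by 0.58, MAP1LC3A, an LC3 relative of MAP1LC3B, by 0.33, and ATG2A, a lipid transfer protein, by 0.25. ATG16L2, MAP1LC3A and ATG2A had group means below the median gene level of 7.44, and the other risen genes of this list had means above it. MAP1LC3A and MAP1LC3B were thus called in opposite directions, although the groups of MAP1LC3A overlapped (limma adjusted p = 0.0476). EPG5, a tether for the fusion of autophagosomes with lysosomes, fell by 0.27 and is, like NPC1, a gene of chromosome 18. PIK3C3 of the same list, also on chromosome 18, stood at -0.02 and was not called. Nutrient sensing through mTORC1, the kinase complex that restrains TFEB and ULK1, had 2 rises and 2 falls among 22 genes. LAMTOR2, a subunit of the lysosomal anchor of mTORC1, and TSC2, an inhibitor of the pathway, rose by 0.35 and 0.29. MTOR, the kinase itself, and FNIP1, a partner of folliculin, fell by 0.22 and 0.25. Without control shRNA replicate 4, the 131 genes had 26 rises and 10 falls.

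**Figure D4:**
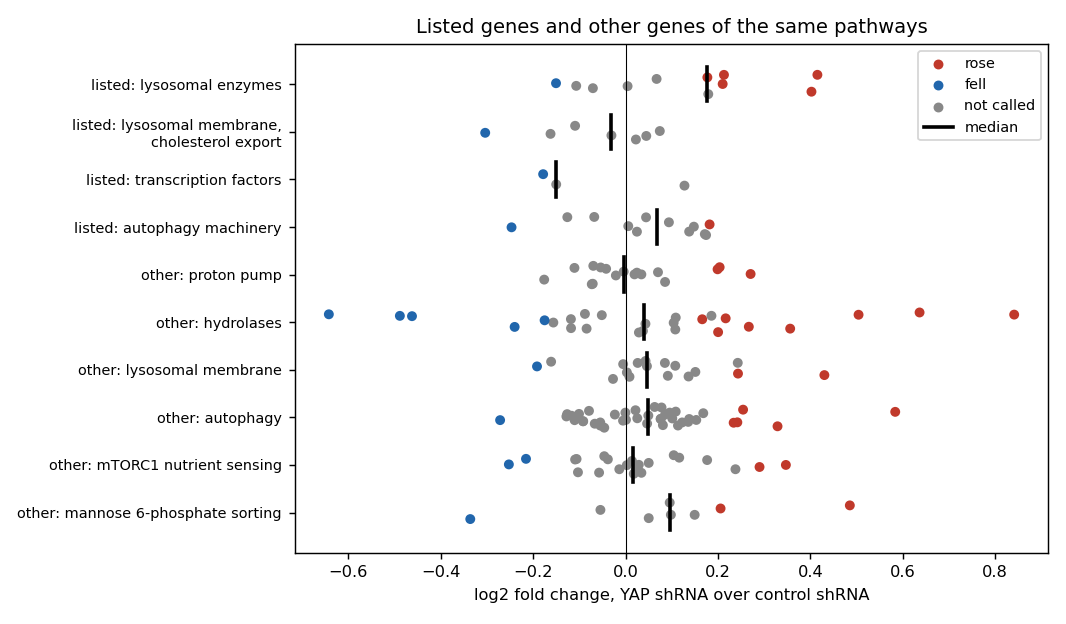
Log2 fold change (YAP shRNA over control shRNA) of each listed gene, by role, and of each gene in the 6 other lists; colours give the call and black bars the list medians. Medians run from -0.15 for the 3 transcription factors to 0.18 for the listed lysosomal enzymes, and other hydrolases spread from -0.64 to 0.84.

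Markers were read to check the cell type and to look for lysosome-rich cells of another kind. The bile duct epithelial markers KRT7, KRT19, EPCAM, SOX9 and CDH1 had group means between 12.88 and 14.19. Of these 5, CDH1 and KRT19 rose, by 0.33 and 0.15 and without overlap of the groups (limma adjusted p of 0.000376 and 0.0137), and 0 fell. KRT7 stood at -0.08, with all YAP shRNA arrays below the control arrays, and was not called (limma adjusted p = 0.129). Of 7 markers of macrophages and other leukocytes, CD14, MARCO and CSF1R rose by 0.46, 0.42 and 0.31 and PTPRC fell by 0.22. That is 57.1% called, where 16.7% of all genes and 26.6% of those at or above the median level were called. All 7 had means from 3.74 to 6.42, below the median gene level of 7.44. Their average lay between 4.92 and 5.03 on the YAP shRNA arrays and between 4.75 and 4.88 on the control arrays. Array values have no true 0, so absence cannot be shown, and the part of these markers in the cathepsin rises was not tested. Of 3 hepatocyte markers 0 rose and 0 fell by limma, and 0 had an unadjusted p below 0.05. Of 3 fibroblast markers COL1A1 rose, by 0.52.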

How the data were processed

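RNA of 8 HuCCT1 samples was purified, amplified with NuGEN reagents and labelled with biotin for Affymetrix arrays, per the labels' protocols. The authors deposited log2 values for each probe set. Their range, 1.72 to 14.9, is the basis for reading them as log2. Background correction, summarisation and normalization: not given in the sources used here. Array medians lay between 6.22 and 6.25, so nothing more was normalized. The number of arrays limits the precision. Of 54675 probe sets, 41097 had 1 gene symbol in GEO's platform annotation, and 41043 of these matched the RefSeq table of GRCh38.p14 by Entrez ID. Each of 19775 genes was read from its brightest such probe set.

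Limma 3.58.1 in R 4.3.3 was fitted to all genes without a block, with Benjamini-Hochberg adjustment over all of them. The labels gave the groups and replicate numbers. The script was tested on simulated data. The listed genes and other lists were chosen with earlier results of these data known. Named are all listed genes, YAP1, markers, and up to 3 risen and 3 fallen genes of each other list. Alternatives covered normalization, dim genes, probe set choice, spread model, array weights, thresholds, blocking by replicate number and leaving out single arrays.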

Additional observations from a re-analysis of the deposited data

Results flagged for a closer look

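The 33 listed genes and YAP1 gave 68 groups of 4 arrays. In 8 of them a single array lay far from its group, a number to set beside the 3.4 that chance would give. YAP shRNA arrays of this kind were replicate 2 for HEXA, at 10.15 (10.20 to 10.21 in the others), replicate 1 for LAMP1, at 13.43 (13.37), and replicate 1 for GABARAPL2, at 11.75 (11.82). Among control arrays, replicate 4 was high for GAA, at 7.001 (6.70 to 6.75), and for CD63, at 13.20 (13.07 to 13.08). Control shRNA replicate 3 was high for YAP1, at 12.77 (12.59 to 12.61), and low for TFEB, at 4.999 (5.42), and replicate 2 was low for ULK1, at 7.61 (7.77 to 7.80). For TFEB and GABARAPL2 the other 3 arrays held identical values.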

How the results depend on the processing

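CTSB, CTSD and NPC1 kept their direction and call under all 20 alternatives. Over all genes 3294 of 19775 (16.7%) were called, against 1785 at an adjusted p below 0.01 and 2106 with a replicate block. With every probe set tested, 5580 of 41097 probe sets (13.6%) were called. The 7 lysosomal calls became 4 without probe sets ending in _x_at or _s_at, which left 13 genes, 3 at 0.01, 4 with the block, and 3 to 8 with 1 array left out. They became 9 with array weights, 8 with trended robust moderation and 8 among genes at or above the median level. The 2 autophagy calls became 5 among genes at or above the median level, 5 with trended robust moderation, 5 with array weights and 5 at 0.10. They became 0 at 0.01, 0 with the block and 0 without the _x_at and _s_at probe sets, which left 7 genes, and 1 to 4 with 1 array left out. In those 3 limma fits, 6, 6 and 5 autophagy genes had an unadjusted p below 0.05. The 32 calls in the other lists became 15 at 0.01 and 20 with the block. Replicate numbers showed no sign of pairing: deviations of same-numbered arrays correlated at -0.21 to 0.00, and no YAP shRNA array correlated best with its own number. With 4 arrays a group, that check cannot show that a weak pairing is absent. Setting single probe sets aside, the alternatives for the listed genes gave 552 results with the same direction and call, 27 that gained and 52 that lost a call, and 17 of opposite sign. All opposite signs were in genes not called with all arrays. HEXA stood at -0.000671 with quantile normalization and at -0.0110 to 0.0215 with 1 array left out. LAMP2 and GABARAPL1 stood at 0.00637 and 0.00284 with array weights, and at -0.0674 to 0.0185 and -0.139 to 0.0396 with 1 array left out. BECN1 ran from -0.00588 to 0.0187 and ATG5 from -0.00736 to 0.0410 with 1 array left out. With each gene's probe sets averaged, TFEB stood at -0.00756, SQSTM1 at -0.0392 and ATG5 at -0.0166. Other probe sets gave -0.14 for TFEB, 0.188 and 0.0792 for TFE3, -0.217 (also the value without _x_at and _s_at) and -0.289 for SQSTM1, -0.0173 and -0.0573 for ATG5, and -0.11 for ATG7. The cause of these changes was not tested.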
